A study of Homo sapiens with 15 samples.

Results

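Cancer-testis antigen genes are genes whose transcripts are normally limited to the germ line and placenta and that reappear in many tumours. The 8 genes described here were taken by symbol from a table of raw counts over 15 libraries: MAGEA1, MAGEA3, MAGEA4, MAGEA10, MAGEA11, MAGEA12, MAGEB2 and CTAG2, all on chromosome X. All 8 were found among the 28207 gene symbols of the table, and all 8 passed the filter on low counts. Each of the 8 genes had between 0 and 2 counts in every siIQGAP3 library and in siControl library 3, and 488 counts or more in every library of the other 3 knockdowns and in siControl libraries 1 and 2.

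The libraries were made from NTERA2, an established human embryonal carcinoma line, which derives from a testicular germ cell tumour and expresses pluripotency genes. All cells were kept in DMEM with 10% FBS, received an siRNA 2 times and were handled over 7 days. The knockdown groups received an siRNA against IGF2BP1 (an oncofetal RNA-binding protein), SRF (a transcription factor of cytoskeletal genes), FOXM1 (a transcription factor of mitotic genes) or IQGAP3 (a scaffold protein), and the siControl group received a control siRNA. Each of the 5 groups had 3 libraries, numbered 1 to 3 here only to name them. The labels do not state whether a group's libraries were grown separately, and the p-values therefore cover only the spread among these libraries, part of which may be technical. By its title, the series concerns control of IQGAP3 by IGF2BP1 and stem cell potential in cancer.

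The MAGE proteins share a fold, the MAGE homology domain, through which many of them bind RING-type ubiquitin ligases and direct what those ligases act on. In healthy adults the MAGE-A and MAGE-B genes are transcribed mainly in male germ cells, and elsewhere their promoters are held silent by DNA methylation. Peptides of these proteins presented on HLA molecules are recognised by T cells, which gave the family its name as tumour antigens. CTAG2 belongs to another family, that of CTAG1A and CTAG1B (NY-ESO-1), and is likewise a T cell antigen of germ line and tumours.

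Library totals ran between 35275570 and 44996064 counts, so that 3 counts, the limit that a count of 0 allows, corresponded to 0.064 to 0.0866 CPM (counts scaled to a common library size, after TMM adjustment) depending on the library. Intervals and limits of this kind cover counting error only. Each siRNA group held less of its own target in every library than any siControl library: IGF2BP1 was at 166 to 213 CPM in siIGF2BP1, against 786 to 1040 in siControl, and SRF at 5.95 to 7.04 CPM in siSRF, against 82.8 to 92.2. FOXM1 was at 153 to 198 CPM in siFOXM1, against 773 to 920 in siControl. IQGAP3 was at 48.9 to 52.1 CPM in siIQGAP3, against 82.5 to 127 in siControl, and the lowest of these siControl values belonged to library 3. Some targets were also lower than in siControl in groups that received another siRNA, and siIQGAP3 held the most IQGAP3 of the 4 knockdowns: IQGAP3 was at 13.6 to 21.4 CPM in siIGF2BP1, 13.9 to 24.5 in siSRF and 4.42 to 8.75 in siFOXM1. SRF was at 5.30 to 7.92 CPM in siIGF2BP1, and FOXM1 at 202 to 291 CPM in siIGF2BP1 and 132 to 318 in siSRF. The siControl library 3 stood apart from the other 2 siControl libraries for all 8 genes and for many others. For the 8 genes it lay with the siIQGAP3 libraries, while its IQGAP3 level of 82.5 CPM lay above all 3 of them. The pluripotency genes POU5F1 and NANOG were at 711 and 69.5 CPM in it. In siIQGAP3 they were at 57.9 to 60.8 and 7.87 to 8.08 CPM, and in siControl libraries 1 and 2 at 906 and 874, and 80 and 100 CPM. The sum of 15 pluripotency markers, given further on, lay nearer siIQGAP3, at 4820 CPM against 5240 to 5370. Whether this library carries the right label could not be settled from the files, and every comparison with siControl depends on it. The counts of called genes are therefore given with it, without it and, for siIQGAP3, against it alone. With library 3 left out, siControl rests on libraries 1 and 2.

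The promoters of 5 of the genes (MAGEA3, MAGEA4, MAGEA11, MAGEA12 and MAGEB2) were present in the RefSeq promoter table of GRCh38.p14, with 250 bases before and 50 after each annotated start, all on the + strand. They are shown because these genes moved together across the libraries. The letters GGATGTGA, in capitals below, were picked out after the sequences had been seen. Ets-type sites, which such letters resemble, are known from the promoter of MAGEA1. Windows are given for MAGEA3 (chrX:152698544-152698843), for the first of the 5 starts of MAGEA4 (chrX:151912224-151912523) and for MAGEB2 (chrX:30215313-30215612).
MAGEA3: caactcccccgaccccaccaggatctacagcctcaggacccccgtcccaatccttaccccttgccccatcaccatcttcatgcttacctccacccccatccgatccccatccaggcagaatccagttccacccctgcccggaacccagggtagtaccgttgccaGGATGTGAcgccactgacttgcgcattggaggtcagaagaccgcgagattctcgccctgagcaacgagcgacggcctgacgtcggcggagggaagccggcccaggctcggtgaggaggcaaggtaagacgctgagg
MAGEA4: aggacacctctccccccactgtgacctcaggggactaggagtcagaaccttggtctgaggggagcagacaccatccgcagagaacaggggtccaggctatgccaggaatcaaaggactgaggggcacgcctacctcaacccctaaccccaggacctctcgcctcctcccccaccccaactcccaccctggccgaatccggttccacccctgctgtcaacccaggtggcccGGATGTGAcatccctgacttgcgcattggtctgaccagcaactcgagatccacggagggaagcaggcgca
MAGEB2: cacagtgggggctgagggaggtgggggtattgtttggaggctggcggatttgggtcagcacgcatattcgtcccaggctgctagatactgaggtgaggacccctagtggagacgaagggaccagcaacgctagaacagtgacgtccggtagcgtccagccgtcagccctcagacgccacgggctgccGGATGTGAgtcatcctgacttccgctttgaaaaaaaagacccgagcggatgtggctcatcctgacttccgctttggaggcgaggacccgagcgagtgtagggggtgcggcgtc

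The same 8 letters, picked from these sequences, were found in every one of the 10 start windows of these 5 genes. They occurred 1 time in each, and only on the strand of the gene. The 2 windows of MAGEA12 overlap and hold the same copy of the motif. The first base of the motif lay 12 to 117 bases before the start. Within a few bases of it the 5 genes differed as follows, in the windows above and in those of MAGEA11 (chrX:149711810-149712109) and of the first of the 2 starts of MAGEA12 (chrX:152733507-152733806).
MAGEA3: ccaGGATGTGAcgccac
MAGEA12: gccGGATGTGAcgccac
MAGEA4: cccGGATGTGAcatccc
MAGEA11: gccGGATGTGAcctcca
MAGEB2: gccGGATGTGAgtcatc
MAGEA3 and MAGEA12 shared the bases that follow the motif. Over both strands, 406 of 35116 promoters in the table held the motif (1.16%), and 41 of 1236 on chromosome X did (3.32%). The 5 genes are related copies, so their windows are not independent of each other. Among the 28 genes of the table that were not among the 8 but showed the same pattern of counts (defined further on), 2 held it (7.14%), CSAG1 and MAGEA6. The 10 windows held 9 to 21 CpG dinucleotides, the bases at which DNA is methylated, against a median of 14 (quartiles 4 and 28) over all promoters of the table. A match of letters is a description of the sequence; binding and methylation were not measured.

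Levels across the 15 libraries are given first as raw counts. MAGEA3, whose protein binds the ubiquitin ligase TRIM28, had 2008, 1983 and 2255 counts in siIGF2BP1, 2164, 2210 and 1249 in siSRF, 1272, 1291 and 2051 in siFOXM1, 0, 0 and 1 in siIQGAP3, and 1631, 1772 and 0 in siControl. MAGEA12, a close relative whose peptides are T cell antigens, had 1783, 1807 and 2205 counts in siIGF2BP1, 2102, 2048 and 1362 in siSRF, 1388, 1514 and 1485 in siFOXM1, 1, 0 and 0 in siIQGAP3, and 1650, 1741 and 0 in siControl. For both genes the 3 siIQGAP3 libraries and siControl library 3 were near or at 0, and the other 11 libraries lay between 1249 and 2255 counts.

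MAGEA1, the first of the family found as a tumour antigen, had 1037, 993 and 989 counts in siIGF2BP1, 1237, 1242 and 488 in siSRF, 527, 544 and 1563 in siFOXM1, no count in any siIQGAP3 library, and 823, 916 and 0 in siControl. MAGEA4, an antigen for which engineered T cells have been developed, had 2640, 2527 and 2578 counts in siIGF2BP1, 2858, 2899 and 1472 in siSRF, 1759, 1773 and 1624 in siFOXM1, 1, 0 and 0 in siIQGAP3, and 2000, 2260 and 1 in siControl. MAGEA10, likewise an antigen presented to T cells, had 1382, 1285 and 1730 counts in siIGF2BP1, 1454, 1557 and 1030 in siSRF, 1013, 1062 and 1140 in siFOXM1, no count in any siIQGAP3 library, and 1091, 1205 and 0 in siControl. The split was the same for these 3 genes, while MAGEA1 varied most over the 9 other knockdown libraries, with its lowest count in siSRF library 3 and its highest in siFOXM1 library 3.

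MAGEA11, a coregulator of the androgen receptor, had 1203, 1290 and 1395 counts in siIGF2BP1, 1236, 1295 and 907 in siSRF, 962, 1015 and 891 in siFOXM1, no count in any siIQGAP3 library, and 1149, 1337 and 1 in siControl. MAGEB2, the only MAGE-B gene of the 8 and, like MAGEA3, a TRIM28 partner, had 1752, 1713 and 1540 counts in siIGF2BP1, 1909, 1776 and 1030 in siSRF, 983, 1132 and 1102 in siFOXM1, 1, 0 and 1 in siIQGAP3, and 1405, 1431 and 2 in siControl. CTAG2 had 6301, 7192 and 4873 counts in siIGF2BP1, 6385, 6902 and 3001 in siSRF, 4733, 4797 and 3005 in siFOXM1, no count in any siIQGAP3 library, and 6718, 7638 and 0 in siControl. CTAG2, from the other family, showed the same split as the MAGE genes at several times their counts.

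**Figure D1:**
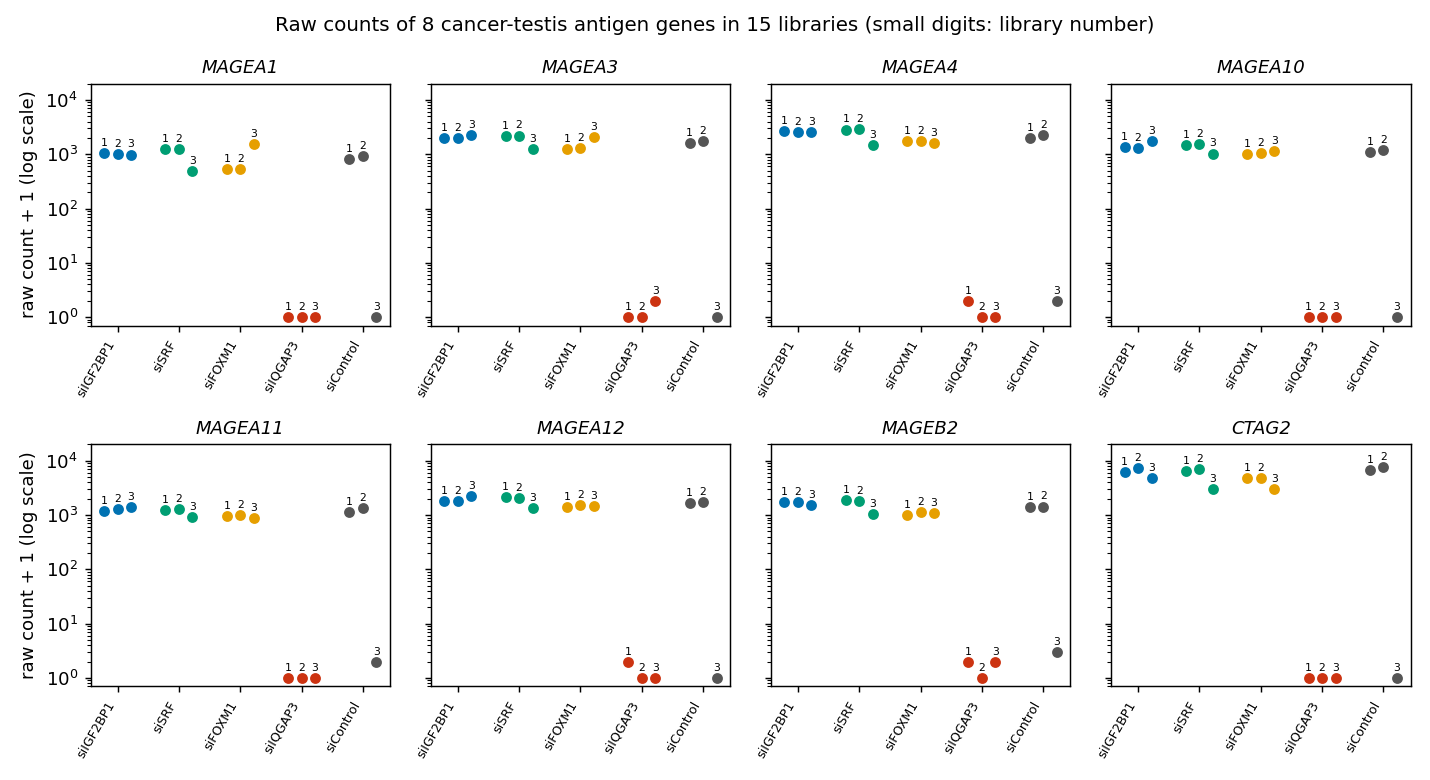
Raw counts of the 8 genes in the 15 libraries, 1 panel per gene, on a log axis of count + 1; each point is 1 library, with its number above it. The siIQGAP3 libraries and siControl library 3 lie at 0 to 2 counts in every panel, and the other 11 libraries lie at 488 counts or more.

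Summed over the genes, the 9 libraries of siIGF2BP1, siSRF and siFOXM1 held 10539 to 19929 counts each, and none of their 72 values was 0. The 3 siIQGAP3 libraries held 5 counts of the 8 genes in all, with 19 of 24 values at 0. The siControl libraries 1 and 2 held 16467 and 18300 counts, and siControl library 3 held 4, with 5 of its 8 values at 0. A few counts cannot be told from no transcript at this depth, and in RNA of a whole culture fewer cells transcribing a gene and less RNA per cell cannot be told apart.

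In siIQGAP3 against siControl, all 8 genes were called lower by edgeR's quasi-likelihood test with Benjamini-Hochberg adjustment over the 18760 genes tested (adjusted p = 0.00185 to 0.00539). Of all genes tested, 21.7% were called lower in this comparison. The log2 fold change had a median of -11.91 over the 8 genes, against -0.06 over all genes; with groups at or near 0 these fitted values depend on the prior count. MAGEB2, with the smallest adjusted p, was at 0.0183 ± 0.0159 CPM in siIQGAP3 and 24.9 ± 21.6 CPM in siControl (SD, n = 3 each), a log2 fold change of -10.16 ± 1.82 (SE). CTAG2 had the lowest fitted value, at 0 CPM in each siIQGAP3 library and 126 ± 111 CPM in siControl (log2 fold change -15.31 ± 3.02, adjusted p = 0.00415).

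The call rested on siControl libraries 1 and 2. The groups did not overlap only for MAGEA11 and MAGEB2, since siControl library 3 was within the siIQGAP3 range for the other 6; of all genes, 23.1% lay lower in siIQGAP3 without overlap. With siControl library 3 as the only control, which then is assumed to vary like the other groups, 0 of 8 genes were called (edgeR adjusted p = 0.347 to 1, and 0 at an unadjusted p under 0.05), against 10.8% of all genes. Without siControl library 3, all 8 were lower (edgeR adjusted p = 2.52e-09 to 3.87e-06), against 30.1% of all genes called lower. Limma-voom on all 15 libraries called 0 of 8 (adjusted p = 0.152 to 0.328), against 13.4% of all genes called lower.

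Relative to siControl libraries 1 and 2, the genes with no siIQGAP3 count were at least 274-fold lower for MAGEA1, 361-fold for MAGEA10, 391-fold for MAGEA11 and 2260-fold for CTAG2, taking 3 counts per library in place of 0. Relative to the mean of all 3 siControl libraries these bounds were 182-fold, 241-fold, 261-fold and 1510-fold. The genes with 1 or 2 siIQGAP3 counts had wide intervals: the ratio of siControl libraries 1 and 2 over siIQGAP3 was 4810 for MAGEA3 (exact 95% interval 862 to 190000), 6020 for MAGEA4 (1080 to 238000), 4790 for MAGEA12 (859 to 189000) and 2000 for MAGEB2 (554 to 16500). Within siControl, libraries 1 and 2 exceeded library 3 by at least 358-fold for MAGEA1, 700-fold for MAGEA3 and 2960-fold for CTAG2, and by a ratio of 873 for MAGEB2 (242 to 7220). The gap inside the control group was thus of the same order as that between siIQGAP3 and siControl.

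In siIGF2BP1, siSRF and siFOXM1 against siControl, 0 of 8 genes were called by edgeR in any of the 3 comparisons. None had an unadjusted p under 0.05, and DESeq2 also called 0. Of all genes tested, 1.62% were called in siIGF2BP1, 1.57% in siSRF and 1.12% in siFOXM1. The adjusted p was 0.785 to 0.951 in siIGF2BP1, 0.854 to 0.988 in siSRF and 0.947 to 0.989 in siFOXM1. The median log2 fold change of the 8 genes was 0.69, 0.61 and 0.24 in the same order, against 0.01, 0.01 and -0.02 over all genes, and each gene's SE was at least 1.02. MAGEA3, at 50.3 ± 0.367 CPM in siIGF2BP1 and 29.9 ± 26.1 CPM in siControl (SD, n = 3 each), was the only gene whose siIGF2BP1 libraries all exceeded every siControl library (log2 fold change 0.75 ± 1.09, adjusted p = 0.789), and 7.74% of all genes did so.

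These values were set by siControl library 3. Without it the log2 fold change ran between -0.34 and 0.22 in siIGF2BP1, between -0.52 and 0.10 in siSRF and between -0.85 and -0.14 in siFOXM1, again with 0 of 8 called by edgeR and 0 at an unadjusted p under 0.05. The shares of all genes called were then 2.74%, 6.71% and 8.16%. In siFOXM1 all 8 values were below 0, with CTAG2 lowest at 105 ± 34.6 CPM (SD, n = 3), against 171 and 207 CPM in siControl libraries 1 and 2 (log2 fold change -0.85 ± 0.41, adjusted p = 0.239). MAGEA11 in siFOXM1 had the smallest p, at 23.8 ± 3.86 CPM, against 29.3 and 36.3 CPM (-0.46 ± 0.22, adjusted p = 0.23). With siControl library 3 as the only control all 8 genes were called higher in each of the 3 knockdowns, against 20.8% of all genes in siIGF2BP1, 18.8% in siSRF and 17% in siFOXM1.

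With library 3 of every group left out, 6 genes were called in siSRF (5 higher, 1 lower), 7 in siFOXM1 (all lower) and 0 in siIGF2BP1. The shares of all genes called were then 54.2% in siSRF, 52.9% in siFOXM1 and 48.9% in siIGF2BP1. Those fits rest on the difference between libraries 1 and 2 of a group, which lay close to each other.

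**Figure D2:**
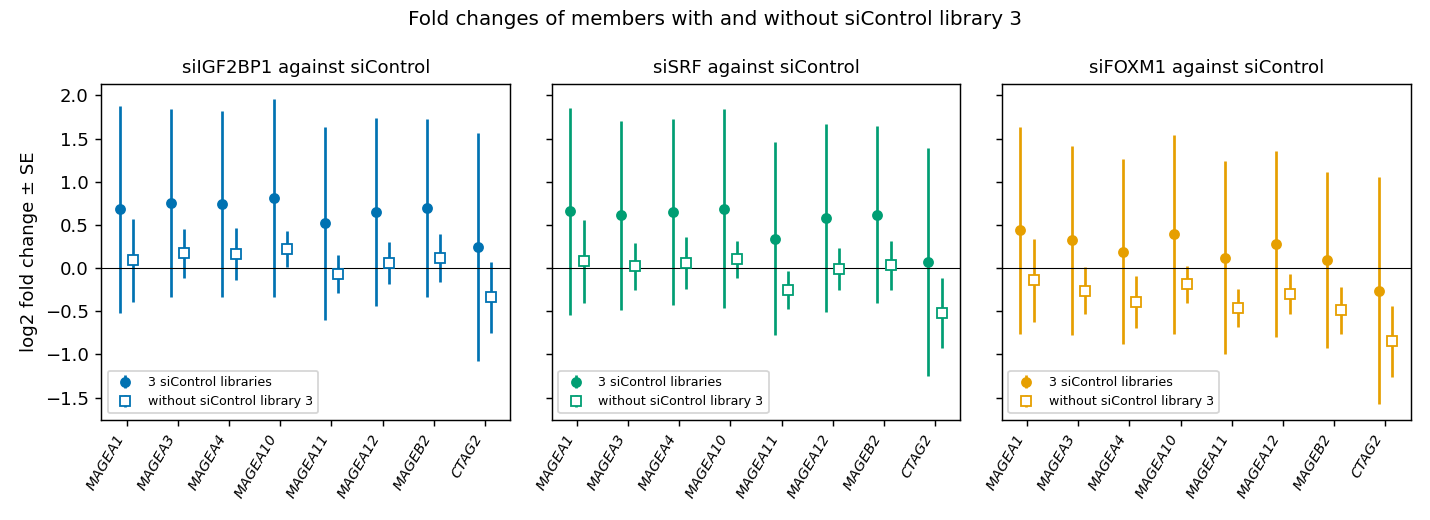
Log2 fold change of each gene against siControl in siIGF2BP1, siSRF and siFOXM1, with all 3 siControl libraries (filled circles) and without siControl library 3 (open squares); bars are ± 1 SE. Leaving the library out moves every value down and shortens every bar, and in siFOXM1 all 8 values then lie between -0.85 and -0.14.

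The direct comparisons with siIQGAP3 contrast no siControl library, although the spread was estimated over all 15 libraries. By its label siControl library 3 received a control siRNA, and it was also at 0 to 2 counts. Whether the differences given here belong to the IQGAP3 siRNA was not tested. All 8 genes were called higher by edgeR in siIGF2BP1 (adjusted p = 0.000913 to 0.0026), in siSRF (0.00116 to 0.00314) and in siFOXM1 (0.00172 to 0.00407). Of all genes, 28.0% were called higher in siIGF2BP1, 25.8% in siSRF and 22.9% in siFOXM1. Every library of these knockdowns exceeded every siIQGAP3 library for all 8 genes, as was the case for 37.4%, 34.9% and 35.7% of all genes. CTAG2 was at least 1780-fold higher in siIGF2BP1 than in siIQGAP3, 1580-fold higher in siSRF and 1260-fold higher in siFOXM1. MAGEA1 was at least 291-fold, 288-fold and 247-fold higher in the same order. For MAGEA4 the ratio over siIQGAP3 was 6700 in siIGF2BP1 (exact 95% interval 1200 to 265000), 6170 in siSRF (1110 to 244000) and 4540 in siFOXM1 (815 to 179000). By limma-voom 7 of the genes were called higher in siIGF2BP1, 4 in siSRF and 2 in siFOXM1, against 25.3%, 22.3% and 19.0% of all genes. CTAG2 was not called by limma-voom in any of the 3 (adjusted p = 0.0977, 0.112 and 0.131).

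Among the 9 libraries in which they were expressed, the genes varied by 1.67-fold (MAGEA11) to 3.19-fold (MAGEA1) between the lowest and the highest library in CPM. MAGEA1 was at 14.0, 14.2 and 34.0 CPM in siFOXM1 and at 31.0, 30.8 and 10.7 CPM in siSRF. Library 3 was thus the highest of siFOXM1 and the lowest of siSRF. CTAG2 was at 125, 125 and 65.4 CPM in siFOXM1, at 160, 171 and 65.6 CPM in siSRF and at 109 to 181 CPM in siIGF2BP1. Library 3 was the lowest in each of the 3 knockdowns. MAGEA11 was the steadiest, at 30.3, 32.4 and 31.2 CPM in siIGF2BP1, 31.0, 32.1 and 19.8 CPM in siSRF, and 25.5, 26.5 and 19.4 CPM in siFOXM1.

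Levels of different genes were compared per kilobase of exon, with lengths from a GRCh38 annotation, while the reads were counted on GRCh37 with an annotation not given in the sources used here. CTAG2 was highest, with a median of 126 CPM per kilobase over the 9 libraries (range 65.9 to 182). It was followed by MAGEA3 (27.9), MAGEA12 (23.1), MAGEB2 (21.4), MAGEA4 (18.7), MAGEA1 (14.6), MAGEA10 (11.1) and MAGEA11 (8.74). Only CTAG2 lay apart from all others; its lowest library was above the highest value of any other gene, 30.6 CPM per kilobase for MAGEA3. The ranges of each of the other neighbours in this order overlapped.

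Some reads of these genes could belong to copies. In the GRCh38 transcripts, 36.1% of the 100-base windows of MAGEA3 were also found in MAGEA6, 26.8% of those of CTAG2 in CTAG1A, and 14.0% of those of MAGEA10 in the readthrough gene MAGEA10-MAGEA5. MAGEA1, MAGEA4, MAGEA11, MAGEA12 and MAGEB2 shared no such window with another gene. CTAG1A had at most 2 counts in any library. Of its own windows, 83.7% are shared with CTAG1B, so a low count does not show that it was silent. MAGEA4-AS1, which is antisense to MAGEA4, had a mean of 3.40 CPM over the 9 knockdown libraries, no count in siIQGAP3 and none in siControl library 3; the strand setting of the counting is not given in the sources used here, so its reads and those of MAGEA4 cannot be told apart with certainty.

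The pattern was not limited to the 8 genes. Of 12490 genes with at least 100 counts in all 9 libraries of siIGF2BP1, siSRF and siFOXM1, 55 had at most 2 counts in each siIQGAP3 library, namely the 8 and 47 others. Of these 55 genes, 42 also had at most 2 counts in siControl library 3, and 54 had at least 100 in siControl libraries 1 and 2. Outside the 8, only CSAG1 and MAGEA6 of the 47 lay on chromosome X, which held 3.27% of the 12490 genes. In the opposite direction, 0 of 12707 genes with at least 100 counts in each siIQGAP3 library had at most 2 counts in all 9.

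Over the 15 libraries, the genes whose log2 CPM was most like the mean of the 8 were PRAME (Pearson r = 0.9994), HOXA13 (0.9992), MIR4458HG (0.9991), TRMT12 (0.9990) and LHX9 (0.9989). These values describe 15 libraries that fall into 2 separate sets of levels, so each r mostly states that a gene has the same split, and no test was made. PRAME, a cancer-testis antigen gene on an autosome, was at 48.1 to 120 CPM in the 9 libraries, 0.00913 ± 0.0158 CPM in siIQGAP3 (SD, n = 3), and 79.1, 101 and 0.0213 CPM in the siControl libraries. HOXA13, a HOX gene of posterior and distal limb identity, was at 84.1 to 134 CPM in the 9 libraries, 0.0650 ± 0.0153 CPM in siIQGAP3 (SD, n = 3), and 129, 134 and 0.107 CPM in the siControl libraries. The lowest correlations were those of OSBPL10 (-0.9908), DESI2 (-0.9878), ANGEL2 (-0.9866), COA7 (-0.9853) and MAK16 (-0.9853). OSBPL10, an oxysterol-binding protein gene, was at 8.78 to 12.2 CPM in the 9 libraries, 45.5 ± 0.547 CPM in siIQGAP3 (SD, n = 3), and 9.91, 9.59 and 34.9 CPM in the siControl libraries.

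Single genes had different nearest neighbours by the same measure. MAGEA3 was closest to MAGEA6 (r = 1 after rounding), with which it shares sequence, and MAGEA1 to THUMPD2 (0.9980). MAGEA4 was closest to PRAME (0.9993), MAGEA10 to LHX9 (0.9992), MAGEA11 to HOTTIP (0.9995), MAGEA12 to HOTAIR (0.9992), MAGEB2 to HOXC11 (0.9996) and CTAG2 to DSCR4 (0.9990). HOTTIP and HOTAIR are long non-coding RNAs of the HOXA and HOXC clusters.

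Few other testis-restricted MAGE genes had more than a few counts. Of 19 found, 14 had at most 10 counts in every library and 3 were tested. A low count does not show absence for near-identical copies. MAGEA2B, MAGEA9 and MAGEA9B had no count in any library, and 100%, 89.7% and 90% of their windows were found in another gene. How reads that match several genes were counted is not given in the sources used here. MAGEA6 and MAGEA2 were lower in siIQGAP3 than in siControl by edgeR, and also without siControl library 3, while neither was called against that library alone. MAGEA6, a TRIM28 partner like MAGEA3, was at 0.00918 ± 0.0159 CPM in siIQGAP3 (SD, n = 3), against 38.1, 42.8 and 0 CPM in siControl (log2 fold change -11.08 ± 2.07, adjusted p = 0.00229). MAGEA2 had no count in siIQGAP3, against 34, 45 and 0 counts in siControl (adjusted p = 0.00842), and 97.8% of its windows are shared with MAGEA2B. MAGEB3, next to MAGEB2 on the chromosome, had 5 to 8 counts in siIQGAP3, against 10, 6 and 23 in siControl, and was not called (adjusted p = 0.619). Of 9 broadly expressed MAGE genes tested, which are not testis-restricted, 0 were called by edgeR with all 3 siControl libraries, 3 were higher in siIQGAP3 without siControl library 3, and 0 were called against that library alone. MAGED1 was at 589 ± 2.96 CPM in siIQGAP3 and MAGED2 at 365 ± 10.6 CPM (SD, n = 3), against 437 and 283 CPM on average in siControl (log2 fold change 0.43 and 0.37, adjusted p = 0.263 and 0.138). MAGED1 was called higher without siControl library 3 (0.72, adjusted p = 0.0472) and MAGED2 was not (0.37, adjusted p = 0.138).

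Other cancer-testis genes did not share the pattern as a group. Of 87 other X-linked cancer-testis genes found, 80 had at most 10 counts in every library and 4 were tested. ESX1, a placental and testicular homeobox gene, was lower in siIQGAP3, with 3, 2 and 1 counts, against 130, 129 and 9 in siControl (log2 fold change -5.31 ± 1.01, adjusted p = 0.00251). VCX, whose near-identical copies make its counts uncertain, was higher, at 0.919 ± 0.106 CPM in siIQGAP3 and 0.231 CPM on average in siControl (1.96 ± 0.71, adjusted p = 0.0499). The counts in this list were 1 lower and 1 higher, and 1 lower and 2 higher without siControl library 3. Against siControl library 3 alone neither ESX1 nor VCX was called (adjusted p = 0.282 and 0.512).

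Of 33 further cancer-testis and germline genes tested, 9 were lower and 1 was higher in siIQGAP3, with a median log2 fold change of -0.74; of all genes, 21.7% were lower and 10.8% higher. The counts were 9 lower and 8 higher without siControl library 3, and 7 lower and 1 higher against that library alone. GTSF1, a gene of the piRNA pathway, which silences transposons in germ cells, had 0, 0 and 2 counts in siIQGAP3, against 1962, 2174 and 8 in siControl (log2 fold change -10.71 ± 1.78, adjusted p = 0.00125). PLAC1, a trophoblast gene, was at 0.139 ± 0.0457 CPM in siIQGAP3 (SD, n = 3), against 7.82, 9.42 and 0.918 CPM (-5.41 ± 0.78, adjusted p = 0.000629). TEX15 and TPTE, both testis genes, fell less, at 13.9 ± 0.929 and 7.63 ± 0.214 CPM in siIQGAP3 (SD, n = 3), against means of 44.6 and 26.5 CPM in siControl (adjusted p = 0.00169 and 0.000757). GTSF1, PLAC1 and TPTE were lower in siIQGAP3 also against siControl library 3 alone (log2 fold change -3, -2.69 and -0.79), GTSF1 from only 8 counts there. The 8 genes cannot be set against this, since at 0 to 2 counts in that library they left no room for a fall to be seen.

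**Figure D3:**
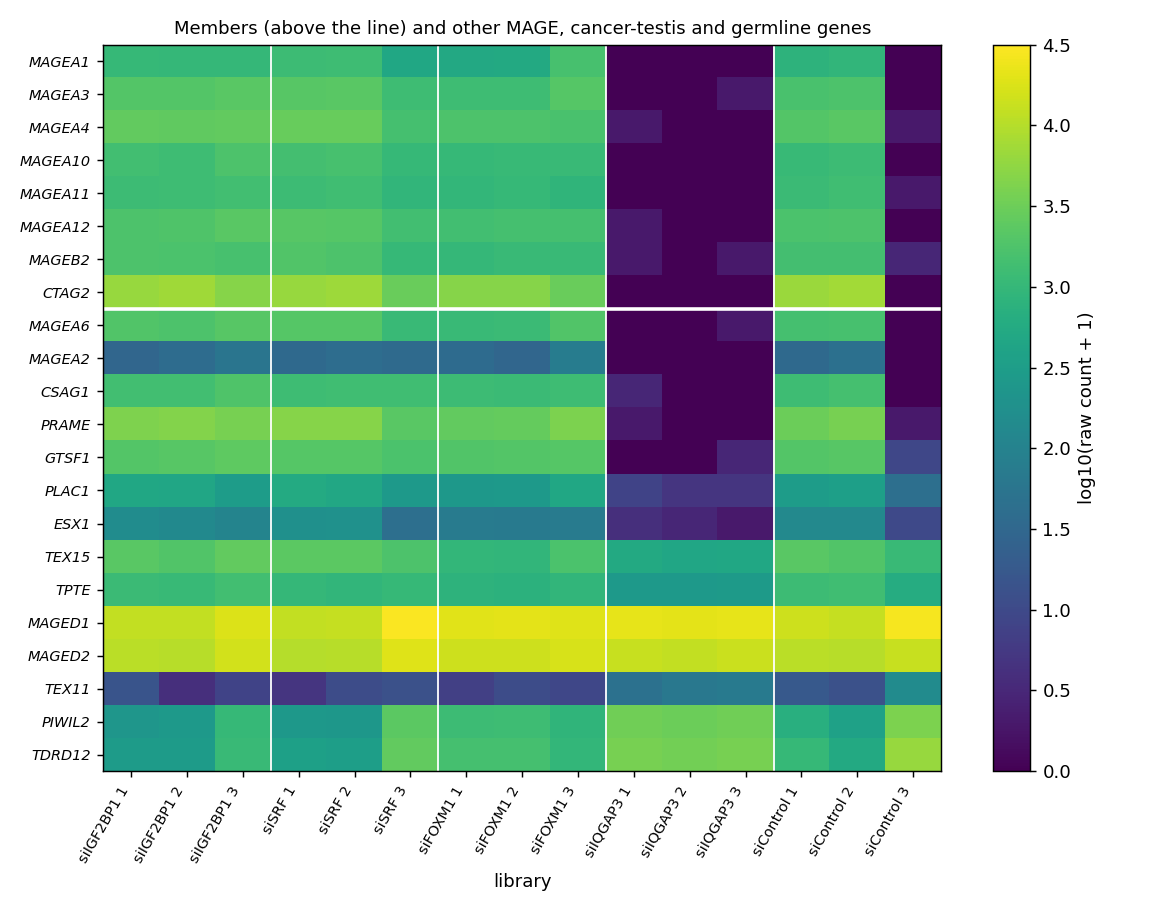
Heat map of log10(raw count + 1) in the 15 libraries, for the 8 genes above the line and, below it, other MAGE, cancer-testis and germline genes, of which TEX11, PIWIL2 and TDRD12 were chosen after their values were seen. MAGEA6, MAGEA2, CSAG1 and PRAME are as dark as the 8 genes in the siIQGAP3 libraries and siControl library 3, MAGED1 and MAGED2 are bright throughout, and PIWIL2 and TDRD12 are brighter there than in siControl libraries 1 and 2.

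Along the chromosome, most tested genes next to the 8 were still detected in siIQGAP3. By gene order in RefSeq GRCh38.p14, MAGEB2 had 10 other symbols in a window on the short arm that runs from MAGEB10 to GK, of which 4 were tested and 0 called in siIQGAP3 against siControl, with or without siControl library 3. The other 7 genes lie in Xq28, where a window from EOLA1 to SNORA56 held 114 other symbols, of which 69 were tested, 25 lower and 2 higher, with a median log2 fold change of -0.54 against -0.06 over all genes. Of these 69, 58 were at 1 CPM or more in siIQGAP3. Without siControl library 3, 70 were tested, 35 lower and 7 higher. Of all genes, 21.7% were called lower and 10.8% higher with all 3 siControl libraries, and 30.1% lower without library 3. Of a shorter list of such Xq28 and MAGEB2 neighbours, 35 were tested, with 12 lower and 0 higher in siIQGAP3 (median -0.30), against 13 lower and 5 higher without siControl library 3 and 2 lower and 1 higher against it alone. FAM3A (-1.40 ± 0.34, adjusted p = 0.00836) and SLC10A3 (-1.09 ± 0.22, adjusted p = 0.00298) were among the 12. Between MAGEA10 and MAGEA3 in this order, GABRA3, a GABA receptor subunit gene, was at 4.23 CPM on average in siIQGAP3, against 16.4 CPM in siControl libraries 1 and 2 and 3.67 CPM in library 3 (log2 fold change -1.52, adjusted p = 0.0174). GABRE, between MAGEA4 and MAGEA10, was at 7.09 CPM in siIQGAP3, against 12.6 and 5.23 CPM (-0.51, adjusted p = 0.213). It was called lower without siControl library 3 (-0.83, adjusted p = 0.00559). CETN2, the first gene past MAGEA6, codes for a centrosome protein and was at 35.6 CPM in siIQGAP3, against 28.8 and 23.0 CPM (0.41, adjusted p = 0.0752, and 0.127 without siControl library 3). CSAG1, between MAGEA3 and MAGEA12, was at 0.0183 CPM in siIQGAP3, against 36.5 CPM in siControl libraries 1 and 2 and 0 in library 3 (-10.13, adjusted p = 0.00243).

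**Figure D4:**
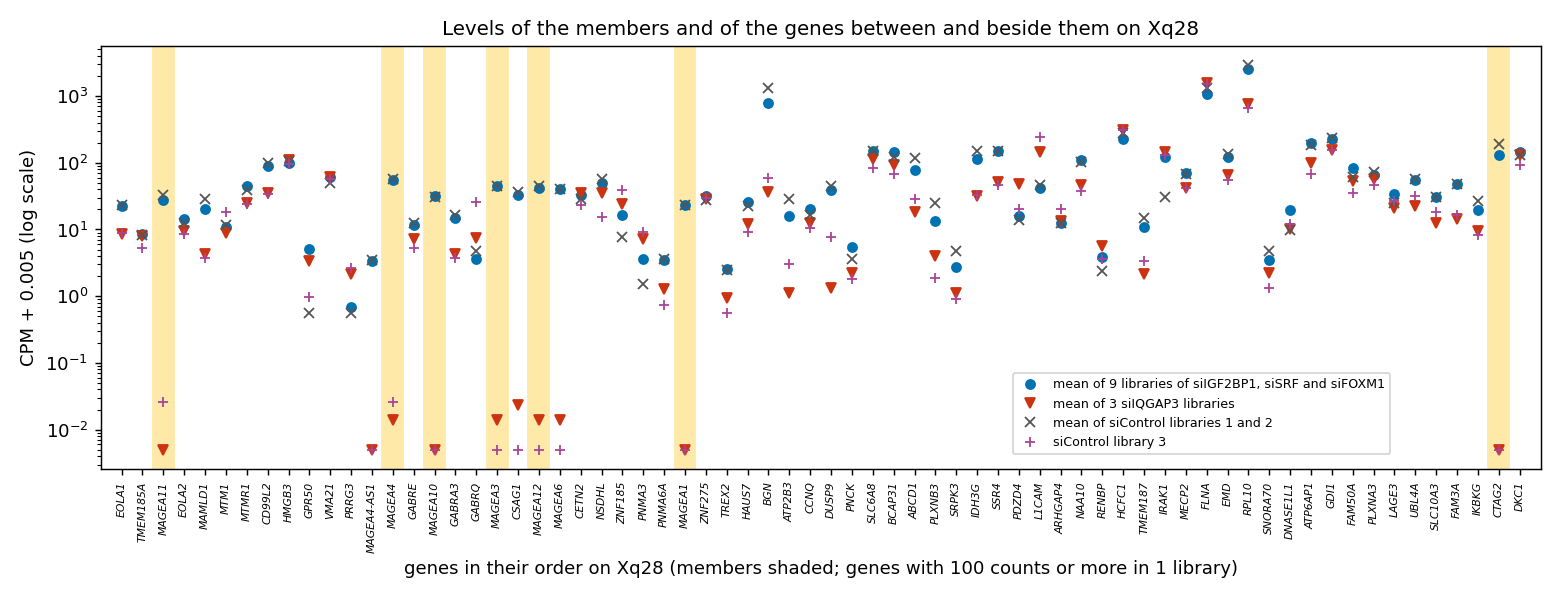
Levels (CPM + 0.005, log axis) of the 7 Xq28 genes (shaded) and of the genes between and beside them, in their order on the chromosome, for genes reported here with 100 counts or more in at least 1 library; symbols are the mean of the 9 siIGF2BP1, siSRF and siFOXM1 libraries, the mean of the 3 siIQGAP3 libraries, the mean of siControl libraries 1 and 2, and siControl library 3. In siIQGAP3 and siControl library 3 the shaded genes, CSAG1, MAGEA6 and MAGEA4-AS1 lie near 0, and the genes around them do not.

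Genes that act with the MAGE proteins or on the chromatin of such promoters were also looked up. Of all genes tested, 21.7% were lower and 10.8% higher in siIQGAP3 than in siControl, and 30.1% were lower without siControl library 3. Of 19 genes for MAGE protein partners tested, 4 were lower and 2 higher in siIQGAP3 than in siControl. Without siControl library 3, 6 of 20 were lower and 7 higher, and against that library alone 0 were called. The 4 partner genes named here were called in the same direction without it. NSMCE2, a subunit of the SMC complex that also holds a MAGE protein, NSMCE3, was at 9.40 ± 0.503 CPM in siIQGAP3 (SD, n = 3), against 183, 197 and 6.70 CPM in siControl (log2 fold change -3.78 ± 0.78, adjusted p = 0.00392). Its levels in the 9 other knockdown libraries, 128 to 192 CPM, were like those of siControl libraries 1 and 2. PJA1, a RING ubiquitin ligase bound by a MAGE-D protein, was at 67.0 ± 1.49 CPM in siIQGAP3 and 49.2 CPM on average in siControl (0.44 ± 0.11, adjusted p = 0.00951). NSMCE1, a RING subunit of the complex that holds NSMCE2 (-0.55 ± 0.13, adjusted p = 0.00715), and RNF113A (-0.78 ± 0.20, adjusted p = 0.0102) were lower in siIQGAP3 than in siControl.

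Of 15 DNA methylation and demethylation genes, 1 was higher and 2 were lower in siIQGAP3 than in siControl, and 4 were higher and 4 lower without siControl library 3. Of all genes, 10.8% were higher and 21.7% lower, and 30.1% were lower without that library. DNMT3B, a de novo DNA methyltransferase and one of the pluripotency markers used below, was at 549 ± 9.85 CPM in siIQGAP3 (SD, n = 3) and 31.6 to 78.7 CPM in the 9 other knockdown libraries, against 113, 91.4 and 371 CPM in siControl (log2 fold change against siControl 1.52 ± 0.50, adjusted p = 0.0357). Its 4 highest libraries were those in which the 8 genes were at 0 to 2 counts. DNMT3L, the cofactor of the de novo enzymes, did not follow that split: it was at 0.575 ± 0.101 CPM in siIQGAP3 (SD, n = 3) and 0.125 to 0.537 CPM in the 9 other knockdown libraries, against 13.6, 9.04 and 2.30 CPM in siControl (siIQGAP3 against siControl -3.84 ± 0.56, adjusted p = 0.000664). DNMT3L was also lower against the same siControl libraries in siIGF2BP1 (-4.31 ± 0.58, adjusted p = 0.00294), siSRF (-5.45 ± 0.62, adjusted p = 0.000866) and siFOXM1 (-5.01 ± 0.60, adjusted p = 0.00193), in which the 8 genes were not called. These 3 calls held without siControl library 3 (adjusted p = 4.77e-05, 2.13e-05 and 2.97e-05). MBD2, which binds methylated DNA, was at 26.0 ± 0.818 CPM in siIQGAP3 (SD, n = 3), against 57.9, 57.6 and 25.0 CPM (-0.85 ± 0.25, adjusted p = 0.0214). Against siControl library 3 alone only DNMT3L was called among the 15 (adjusted p = 0.0156).

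Of 28 histone and chromatin silencing genes tested, 3 were higher and 0 lower in siIQGAP3 than in siControl: the histone deacetylase gene HDAC2 (log2 fold change 0.77 ± 0.18, adjusted p = 0.00682), SIRT1 (0.74 ± 0.20, adjusted p = 0.0145) and the histone methyltransferase gene EHMT1 (0.32 ± 0.10, adjusted p = 0.0308). Of all genes tested, 10.8% were called higher and 21.7% lower in this comparison. Of 14 transcription factor genes, 1 was lower, the homeobox gene MEIS1. It was at 4.82 ± 0.408 CPM in siIQGAP3 (SD, n = 3), against 51.5, 57.0 and 3.33 CPM in siControl (-2.95 ± 0.68, adjusted p = 0.00663). Without siControl library 3 the counts were 8 higher and 3 lower for the silencing genes and 5 higher and 1 lower for the transcription factors. Against that library alone they were 1 higher and 1 lower for the silencing genes and 0 for the transcription factors.

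The median log2 fold change in siIQGAP3 against siControl was 0.11 for the partners, 0.25 for the DNA methylation genes, 0.16 for the silencing genes, 0.25 for the transcription factors, 0.37 for the broadly expressed MAGE genes and 0.22 for the other X-linked cancer-testis genes, against -0.06 over all genes. Leaving out siControl library 3 gave medians of 0.01, 0.24, 0.14, 0.54, 0.72 and 1.07 in the same order, against 0.03 over all genes. In the other knockdowns against all 3 siControl libraries, the genes called in any of these lists were DNMT3L and, lower in siIGF2BP1 and siSRF, DPPA2, a gene of early embryos and germ cells. DPPA2 was at 0.201 to 0.553 CPM in siIGF2BP1 and 0.226 to 0.347 CPM in siSRF, against 1.38, 0.950 and 4.20 CPM in siControl (log2 fold change -2.59 ± 0.55 and -2.92 ± 0.56, adjusted p = 0.0384 and 0.0204). DPPA2 was again lower in both without siControl library 3 (-1.69 and -2.01, adjusted p = 0.048 and 0.0137), and at most 3 genes of any of these lists were called in any of the 3 knockdowns.

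Marker lists of cell types also differed between the libraries, some in the direction of the 8 genes and some not, and their part in these results was not tested. The 15 embryonal carcinoma and pluripotency markers were all found, with at least 14 at 1 CPM or more in every library of each group. Their summed level was 471 to 609 CPM in siIGF2BP1, 500 to 610 in siSRF, 346 to 1450 in siFOXM1, 5240 to 5370 in siIQGAP3, and 1880, 2380 and 4820 in siControl, with the last value in library 3. Single markers differed. LIN28A went with the sum, at 1520 CPM on average in siIQGAP3, against 358, 221 and 658 in siControl. POU5F1 was at 57.9 to 60.8 CPM in siIQGAP3, against 906, 874 and 711 in siControl. NANOG was at 7.87 to 8.08 CPM, against 80, 100 and 69.5. In the 9 other knockdown libraries POU5F1 was at 19.6 to 84.4 CPM and NANOG at 1.64 to 7.26. The 10 fibroblast markers summed to 5540 to 11300 CPM in siIGF2BP1, 4980 to 9640 in siSRF, 7270 to 8990 in siFOXM1, 2830 to 2860 in siIQGAP3, and 7700 to 8980 in siControl libraries 1 and 2, against 2020 in library 3. COL1A1 made up most of the siIQGAP3 sum (mean 2170 CPM) and was lower in siSRF libraries 1 and 2, at 1310 and 1350 CPM. THY1 was higher in siIQGAP3 (253 to 260 CPM) than in siControl libraries 1 and 2 (80.6 and 91.9). PDGFRB was too, at 106 to 113 against 25.7 and 22.9 CPM. The other markers of this list were lower in siIQGAP3 than in those siControl libraries. The 7 endoderm and yolk sac markers summed to 12.8 to 14.7 CPM in siIQGAP3 and 52.1 to 85.9 in the other knockdowns, against 63.4 to 71.2 in siControl libraries 1 and 2 and 5.83 in library 3. Neural markers summed to 390 to 411 CPM in siIQGAP3, against 183 to 203 in siControl libraries 1 and 2 and 163 in library 3, and trophoblast markers to 152 to 162 CPM in siIQGAP3, against 309 to 345 and 211. Endothelial markers summed to 75.7 to 80.9 CPM in siIQGAP3, against 18.7 to 30.4 and 89.0, and blood markers to at most 11 CPM in any library. The 13 spermatogonial and germ cell markers, the cells in which the 8 genes are normally transcribed, summed to 162 to 166 CPM in siIQGAP3 and 48.5 to 142 in the other knockdowns, against 162 to 204 in siControl libraries 1 and 2 and 268 in library 3. As a sum they did not show the split of the 8 genes. FGFR3 made up most of that sum in siIQGAP3 (110 to 115 CPM), while DDX4, STRA8 and NANOS2 were near 0 in every library. NANOS3 was at 0.247 to 0.523 CPM in siIQGAP3 and 1.16 to 2.22 in the other knockdowns, against 2.06, 1.85 and 0.619 in siControl. ID4 was higher in siIQGAP3 (31.9 to 32.5 CPM) than in siControl libraries 1 and 2 (10.9 and 5.76).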

How the data were processed

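RNA of 15 NTERA2 libraries, 3 for each of 5 siRNAs, was sequenced as paired reads of 100 bases, per the labels' protocols. The submitters' processing notes list STAR (an aligner), SAMtools, featureCounts (a read counter) and the build GRCh37, with no order; no version, annotation or strand setting is given in the sources used here. The authors deposited raw counts per gene, on which every test was run, and a normalised signal. For the 8 genes, all 96 values above 0 in the deposited signal table equalled the count multiplied by a library's factor (tolerance 1e-06), and the table was not used further. No column names a replicate.

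Of 28207 genes, 3175 had no count, and filterByExpr on the 5 groups kept 18760. Genes were tested by edgeR's quasi-likelihood test (edgeR 4.0.16, R 4.3.3) with TMM scaling in 1 fit of all 15 libraries with 10 residual degrees of freedom, adjusted over all genes tested by the Benjamini-Hochberg method, at a threshold of 0.05. Values are CPM as mean ± SD of 3 libraries and log2 fold change ± SE. The SE was not given by the fit. It was derived as the absolute log2 fold change divided by the square root of the test's F statistic. With a group at or near 0 it therefore depends on the prior count, as the fold change does. The code was tested on simulated data. Correlations were taken on log2 CPM (prior count 2), over genes with a mean of at least 1 CPM. Alternatives were DESeq2 1.42.0, limma-voom (limma 3.58.1), other scalings and filters, only the 2 groups compared, each library left out, the third libraries left out and, added after the data were seen, siControl library 3 as the only control.

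The 8 genes and all lists were chosen with earlier results of these data known. Named from each list are up to 4 called genes by smallest p-value in siIQGAP3 against siControl, or the 2 with the highest level where none passed. Also named are the siRNA targets and the genes nearest in correlation (the 5 highest and 5 lowest with the mean of the 8, and the closest to each gene). Genes named for their place on the chromosome, for antisense transcription or for shared sequence (MAGEB3, CTAG1A, CTAG1B, MAGEA2B, MAGEA9, MAGEA9B, MAGEA4-AS1, GABRA3, GABRE, CETN2), and DPPA2, were chosen after their values were seen. So were the single cell type markers named beside the sums of their lists. A gene that the rule names is not reported here.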

Additional observations from a re-analysis of the deposited data

How the results depend on the processing

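No count of called genes changed when any 1 library was left out: it stayed at 0, 0, 0 and 8 of 8 in siIGF2BP1, siSRF, siFOXM1 and siIQGAP3 against siControl, and at 8 in each knockdown against siIQGAP3. Other scalings, other filters and DESeq2 gave these counts too. With only the 2 groups compared, siIQGAP3 against siControl gave no value, since the filter removed all 8 genes. Limma-voom called 0 in siIQGAP3 against siControl, and 7, 4 and 2 in siIGF2BP1, siSRF and siFOXM1 against siIQGAP3; the cause was not tested. With the third libraries left out, 6 genes were called in siSRF and 7 in siFOXM1 against siControl, on the narrow spread of libraries 1 and 2. With siControl library 3 as the only control, 8, 8 and 8 were called in siIGF2BP1, siSRF and siFOXM1, and 0 in siIQGAP3. No paired analysis was possible because the columns carry no replicate number.

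Directions against siControl changed as follows. By limma-voom, CTAG2 in siFOXM1 was 4.16 on the log2 scale. Limma-voom also moved the other values up, with none called. Over the 8 genes they were 3.45 to 4.7 in siIGF2BP1, 3.24 to 4.43 in siSRF and 2.84 to 4.16 in siFOXM1. By edgeR they were 0.24 to 0.81, 0.07 to 0.69 and -0.26 to 0.44 in the same order. With the third libraries left out, siIGF2BP1 gave -0.11 for MAGEA11, -0.03 for MAGEA12 and -0.21 for CTAG2, and siSRF gave -0.10 for MAGEA11 and -0.24 for CTAG2. In siFOXM1 that setting gave -0.72 for MAGEA1, -0.43 for MAGEA3, -0.29 for MAGEA4, -0.17 for MAGEA10, -0.35 for MAGEA11, -0.24 for MAGEA12 and -0.44 for MAGEB2. With siControl library 3 as the only control, CTAG2 in siFOXM1 was 15.07, while siIQGAP3 gave 0 for MAGEA1, MAGEA10 and CTAG2 and 2 for MAGEA3 and MAGEA12. With 1 library left out, 18 values changed direction and none was called; their lowest value came without siControl library 3 and their highest without siControl library 2. In siIGF2BP1 the range was -0.07 to 1.1 for MAGEA11 and -0.34 to 0.80 for CTAG2. In siSRF it was -0.25 to 0.92 for MAGEA11, -0.01 to 1.08 for MAGEA12 and -0.52 to 0.62 for CTAG2. In siFOXM1 it was -0.14 to 1 for MAGEA1, -0.26 to 0.86 for MAGEA3, -0.39 to 0.76 for MAGEA4, -0.19 to 0.94 for MAGEA10, -0.46 to 0.71 for MAGEA11, -0.30 to 0.80 for MAGEA12, -0.49 to 0.58 for MAGEB2 and -0.85 to 0.31 for CTAG2. Depth limits what can be said of the genes at 0: a count of 0 allows up to 0.064 to 0.0866 CPM, depending on the library.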

Other observations

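The germline genes named here were chosen after their values were seen. PIWIL2 and TDRD12, which act in the piRNA pathway with GTSF1, were high in libraries where the 8 cancer-testis antigen genes were near 0. PIWIL2 had 3411, 3083 and 3288 counts in siIQGAP3 and 230 to 2370 in the 9 libraries of siIGF2BP1, siSRF and siFOXM1, against 682, 380 and 4094 in siControl. TDRD12 had 3816, 3475 and 3853 counts in siIQGAP3 and 293 to 2618 in those 9 libraries, against 1054, 546 and 6430 in siControl. The siControl library 3 was the deepest library. Scaled to library size, PIWIL2 was at 93.5, 89.0 and 90.5 CPM in siIQGAP3, against 87.4 CPM in siControl library 3, and TDRD12 at 105, 100 and 106 CPM, against 137 CPM.

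Some other X-linked cancer-testis genes, among them MAGE genes, were found in 1 library only at more than a few counts. SAGE1 had 25 counts in siFOXM1 library 3, against 1 and 1 in siIGF2BP1 libraries 1 and 2 and none elsewhere. MAGEC2 had 14 counts and MAGEC1 had 12 in siFOXM1 library 3, against at most 5 and 2 in any other library. The same library held the highest MAGEA1 count of all, 1563, and the highest MAGEA3 level of the siFOXM1 libraries, 44.6 CPM. It was the lowest siFOXM1 library in CPM for MAGEA4, MAGEA10, MAGEA11, MAGEA12, MAGEB2 and CTAG2.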
